A study of Mus musculus with 8 samples.

Results

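Complement pathway genes were examined in islet RNA of *Irs2*-null mice with and without a gain-of-function *Cdk4* allele. The 9 genes were taken by symbol from a matrix of 24123 genes: *C1ra*, *C1s1*, *C4b*, *C2*, *C3*, *Cfb*, *Cfd*, *C3ar1* and *Serping1*. All 9 are listed in the matrix, and 5 of them passed the filter on low values, a minimum of 1 RPKM that 2 or more libraries had to reach, which left 12594 genes for testing. RPKM is the read count of a gene scaled by its length in kilobases and by the size of the library. *C2*, *Cfb*, *Cfd* and *C3ar1* were under that filter.

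Complement is a cascade of plasma and tissue proteins that tags and lyses targets and recruits leukocytes. In the classical pathway, C1q recruits the proteases C1r and C1s, which cleave C4 and C2 to build a convertase that cleaves C3. In the alternative pathway, factor B joins deposited C3b and is then cleaved by factor D, which gives a second kind of convertase. The fragment C3a released from C3 acts on the receptor C3aR1. The C1 inhibitor, encoded by *Serping1*, blocks C1r and C1s. Most circulating complement is made by the liver, and many other cell types, islet cells among them, make components locally.

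Whole islets of adult male mice were collected by ductal collagenase digestion and a Ficoll gradient, picked by hand and flash frozen, and 8 libraries were analysed. The Control group was IRS2+/+; CDK4 wt/wt (3 libraries, numbered 1, 3 and 4), the Diabetic group was IRS2-/-; CDK4 wt/wt (3 libraries, 1, 2 and 3) and the Rescue group was IRS2-/-; CDK4 R24C/R24C (2 libraries, 1 and 2). The *Irs2* deletion is whole-body and so is the knocked-in *Cdk4* change, which blunts inhibition of the kinase by p16. The *Irs2* line came from a mixed B6 and 129 stock, and the colony was crossed to C57BL/6N without extensive backcrossing. Littermates came from multiple litters, but the labels give no litter. Neither the labels nor the Methods say whether a library is 1 mouse or a pool, so each p-value measures only the spread between libraries. No *Irs2*+/+ library with the R24C allele was analysed here, so the effect of that allele can be read only on the null background.

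The libraries held 10.3 to 14.3 M reads in listed genes. Gene-level *Irs2* was 5.14, 11.0 and 6.74 RPKM in Control, 36.3, 31.6 and 21.98 in Diabetic and 7.15 and 16.3 in Rescue. A gene-level value does not separate deleted from remaining sequence, so it does not check the genotype labels. *Ins2* was at 54226 RPKM or more in every library, but not all β cell markers held their level. *Slc2a2* was at 108, 164 and 221 RPKM in Control, 30.9, 40.6 and 35.4 in Diabetic and 23.3 and 54.5 in Rescue. Of 7 β cell markers, 1 was called lower and 0 higher in each of the 3 comparisons (limma, adjusted p under 0.05), and 6 were not called. One split among libraries did not follow genotype: *Clk1*, a kinase gene whose unspliced RNA stays in the nucleus, was at 16.4 to 20.8 RPKM in 5 libraries (Control 1 and 3, Diabetic 1, Rescue 1 and 2) and at 1.79 to 2.06 RPKM in the other 3 (Control 4, Diabetic 2 and 3). Both Rescue libraries fall on 1 side of it, and results are therefore also given for those 5 libraries alone.

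Of the 9 genes, *C1ra*, *C1s1*, *C4b*, *C3* and *Serping1* were higher in both Rescue libraries than in every other library. How many of all genes share this order was not counted, so it is a description only. Of the 5 tested members, 5 were called higher in Rescue than in Control, 4 were called higher in Rescue than in Diabetic, and 0 were called in either direction in Diabetic against Control (limma on log2(RPKM + 1), adjusted p under 0.05 over all tested genes). These counts stand against a wide background. Over all tested genes, 18.0% were called higher and 5.48% lower in Rescue than in Control. In Rescue against Diabetic, 24.0% were called higher and 5.80% lower. In Diabetic against Control, 1.53% were called higher and 2.44% lower. The median log2 difference of the 5 tested members was 3.24 for Rescue minus Control, 2.22 for Rescue minus Diabetic and 0.96 for Diabetic minus Control, beside 0.08, 0.24 and -0.12 over all tested genes. The 3 comparisons share libraries in pairs, so their values are set side by side and are not independent of each other. In Diabetic against Control, 4 of the 5 members had an unadjusted p under 0.05 in limma, as did 2939 of all 12594 tested genes (23.3%), and voom on recovered reads called 0 of 5. *C4b* and *C1ra* would not have passed the filter on their Control libraries alone, and the counts describe 5 of 9 genes only.

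**Figure D1:**
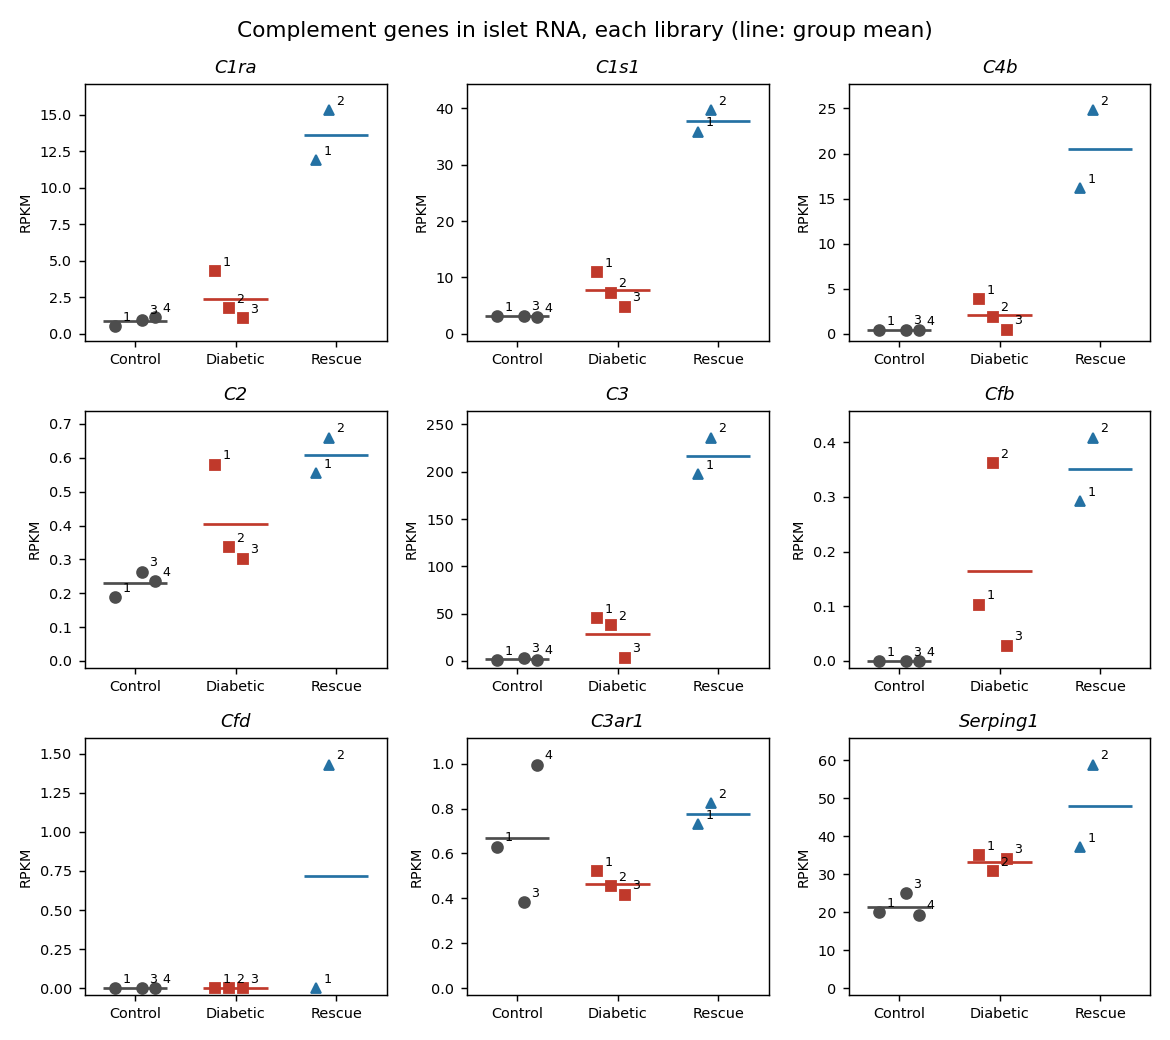
RPKM (vertical axis, from 0, with a separate scale per panel) of each of the 9 complement genes in the 8 libraries, grouped by genotype. Points are single libraries with their number and lines are group means. *C3*, *C4b*, *C1ra* and *C1s1* are highest in both Rescue libraries, and Diabetic 1 is the highest of the other 6 libraries for these 4 genes.

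The classical pathway starts with the C1 proteases. *C1ra* (ENSMUSG00000055172, chr6:124512405-124523443 of GRCm38, plus strand) encodes C1r, which activates itself in the C1 complex. It was at 0.51, 0.97 and 1.15 RPKM in Control, 4.27, 1.75 and 1.07 in Diabetic and 11.9 and 15.3 in Rescue. Diabetic 3 fell within the Control range, and both Rescue libraries lay above every other library. *C1ra* was 2.22 log2 units higher in Rescue than in Diabetic (SE 0.36, limma adjusted p = 0.00361) and 2.97 higher than in Control (SE 0.36, adjusted p = 0.000802). Its difference between Diabetic and Control was 0.74 (SE 0.32, adjusted p = 0.214). Of its 150-base windows of transcript, 26.3% also occur in the near-identical copy *C1rb*, whose own level stayed at or under 0.48 RPKM, so a part of the *C1ra* reads cannot be placed with certainty.

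*C1s1* (ENSMUSG00000038521, chr6:124530345-124542359, minus strand) encodes C1s, the protease that cleaves C4 and C2. Its levels were 3.17, 3.18 and 2.92 RPKM in Control, 11.0, 7.31 and 4.83 in Diabetic and 35.9 and 39.6 in Rescue. The 3 groups did not overlap. The gene rose by 2.21 log2 units from Diabetic to Rescue (SE 0.26, limma adjusted p = 0.00146) and was 3.24 above Control (SE 0.26, adjusted p = 0.000331). Against Control, the Diabetic difference of 1.03 (SE 0.24) had an adjusted p of 0.0518, just outside the threshold. That call is sensitive to small choices: it passed with a pseudocount of 0.5 (adjusted p = 0.0479) or with median-of-ratios scaling (adjusted p = 0.0176). In RPKM, *C1s1* was 2.53 to 6.21 times *C1ra* across the 8 libraries. An antisense gene, *Gm16567*, overlaps 576 exon bases of *C1s1*, and whether the counting used strand is not given in the sources used here.

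*C4b* (ENSMUSG00000073418, chr17:34728380-34743882, minus strand) encodes C4, the next component to be cleaved. Control libraries held 0.42, 0.45 and 0.37 RPKM (36, 33 and 30 reads). In Diabetic the values were 3.84, 1.88 and 0.48 RPKM and in Rescue 16.2 and 24.8 RPKM. No group overlapped another, although Diabetic 3 stood only just above the highest Control library, at 35 reads. The mean in Rescue was 20.5 ± 6.10 RPKM (SD, n = 2), 49.4 times the Control mean of 0.41 ± 0.04 (n = 3). In limma, *C4b* was 2.94 log2 units higher in Rescue than in Diabetic (SE 0.42, adjusted p = 0.00239) and 3.89 higher than in Control (SE 0.42, adjusted p = 0.000538), and the Diabetic difference from Control was 0.96 (SE 0.38, adjusted p = 0.182). The log2(RPKM + 1) scale understates the change of so low a gene. The paralogue *C4a* shares 7.48% of the 150-base windows of *C4b* and was at 0.44 RPKM or less in every library.

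*C2* (ENSMUSG00000024371, chr17:34862604-34898265, minus strand), whose product supplies the protease part of the classical convertase, was measured on few reads. It was at 0.19, 0.26 and 0.24 RPKM in Control (11, 13 and 13 reads), 0.58, 0.34 and 0.30 in Diabetic (31, 14 and 15 reads) and 0.55 and 0.66 in Rescue (26 and 31 reads). Control was the lowest group without overlap, while Rescue and Diabetic overlapped. *C2* was not in the main test, and 161 of its exon bases overlap *Zbtb12* on the other strand. In the fit with no filter, the difference between Rescue and Control was 0.39 log2 units (limma adjusted p = 0.0244), between Diabetic and Control 0.19 (adjusted p = 0.275) and between Rescue and Diabetic 0.20 (adjusted p = 0.163).

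*C3*, on which all pathways converge, had the widest range of the 9 genes. It lies on chr17:57203970-57228136 of GRCm38 (ENSMUSG00000024164, minus strand, 42 merged exons). Control libraries were at 0.98, 3.63 and 1.41 RPKM (76, 238 and 103 reads). Diabetic libraries were at 45.2, 38.0 and 3.33 RPKM (3212, 2103 and 220 reads). Rescue libraries were at 197 and 236 RPKM (12285 and 14741 reads). Diabetic 1 and 2 therefore stood above every Control library, while Diabetic 3 lay below Control 3. Rescue averaged 217 ± 27.4 RPKM (SD, n = 2), Diabetic 28.9 ± 22.4 (n = 3) and Control 2.004 ± 1.42 (n = 3), so that the Rescue mean was 108 times the Control mean and 7.51 times the Diabetic mean.

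The difference in *C3* between Rescue and Control was 6.27 log2 units (SE 0.90, limma adjusted p = 0.00146). Between Rescue and Diabetic it was 3.45 (SE 0.90, 95% interval 1.39 to 5.51, adjusted p = 0.0230). Without Rescue 1 that adjusted p was 0.110, and without Rescue 2 it was 0.0852, with differences of 3.58 and 3.32. In Diabetic against Control the difference of 2.82 (SE 0.81, adjusted p = 0.0892) did not pass, with an interval of 0.98 to 4.67. Leaving out Diabetic 3 moved it to 3.92 (adjusted p = 0.00153), and the Diabetic-Control result thus rests on whether that library is kept. *C4b* and *C1s1* also passed in Diabetic against Control without Diabetic 3, at 1.40 (adjusted p = 0.0217) and 1.29 (adjusted p = 0.00867).

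The stretch of 250 bases just before the RefSeq start of *C3* (GRCm38.p6, read on the minus strand) is shown with that of *C1s1* because both genes rose in Rescue and their start regions differ in the motifs searched. Sequences are from RefSeq, written 5′ to 3′ and ending at the base before the start, and capitals mark motif matches.
C3, chr17:57228137-57228386: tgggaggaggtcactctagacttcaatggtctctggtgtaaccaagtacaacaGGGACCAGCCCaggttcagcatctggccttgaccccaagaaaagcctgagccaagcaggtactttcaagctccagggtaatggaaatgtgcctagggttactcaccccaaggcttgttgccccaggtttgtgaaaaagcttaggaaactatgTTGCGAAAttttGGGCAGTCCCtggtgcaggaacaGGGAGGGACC
C1s1, chr6:124542360-124542609: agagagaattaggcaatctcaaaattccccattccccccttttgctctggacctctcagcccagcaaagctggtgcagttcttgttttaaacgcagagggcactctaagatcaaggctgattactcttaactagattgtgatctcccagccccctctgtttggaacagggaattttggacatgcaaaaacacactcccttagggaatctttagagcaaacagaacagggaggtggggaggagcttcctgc
The motifs searched, on both strands, were NF-kappaB (GGGNNNNNCC), C/EBP (TTGCGNAA), STAT (TTCNNNGAA) and ISRE (GAAANNGAAA). In *C3* the NF-kappaB letters matched at 4 places, whose first bases lie at -197, -196, -33 and -10 from the start, and the first pair overlap by all but 1 base. The C/EBP letters matched once, at -45. *C1s1* held no match. Of 27025 promoter windows of the same length, 45.4% hold the NF-kappaB letters, 0.670% the C/EBP letters, 7.18% the STAT letters and 3.04% the ISRE letters. Of the 9 genes, 5 were in the promoter table. *C1ra* held no match, and *Cfd* and *C3ar1* each held 1 NF-kappaB match. A match describes letters and not a bound site.

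Of the alternative pathway genes, *Cfb* and *Cfd* were close to the limit of detection. *Cfb* (ENSMUSG00000090231, chr17:34856374-34862518, minus strand), which encodes factor B, had 0 reads in the 3 Control libraries. It had 4, 11 and 1 reads in Diabetic (0.10, 0.36 and 0.03 RPKM) and 10 and 14 reads in Rescue (0.29 and 0.41 RPKM). Against a floor of 3 reads over the Control group, the 24 Rescue reads put *Cfb* 13.9-fold higher in Rescue, and the 16 Diabetic reads put it 6.004-fold higher in Diabetic. The floor allows for counting error in Control only. The Rescue and Diabetic reads were taken as counted, so these values are not lower bounds. The fit with no filter gave an adjusted p of 0.0315 for Rescue against Control, 0.309 for Diabetic against Control and 0.183 for Rescue against Diabetic in limma. *Cfb* and *C2* are also spanned by the annotated read-through gene *Gm20547*, which covers 2246 of 2825 exon bases of *Cfb* and 1656 of 3872 of *C2* in GENCODE M21. A counter that drops reads of overlapping genes would lower both, and which annotation the authors counted with is not given in the sources used here.

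*Cfd* (ENSMUSG00000061780, chr10:79890853-79892655, plus strand), which encodes factor D, also called adipsin, had reads in a single library, Rescue 2, with 16 reads (1.43 RPKM). The other 7 libraries had 0 reads, which allows up to 0.215 to 0.302 RPKM at 3 reads per library. Factor D is a well-known product of fat cells. The adipocyte markers *Adipoq* and *Plin1* were at 0.42 and 0.21 RPKM in Rescue 2, at 0.18 and 0.04 in Rescue 1 and at 0.10 and 0.50 in Diabetic 1. Summed over the 6 adipocyte markers, Rescue 2 had the highest of all 8 libraries at 1.09 RPKM and Diabetic 1 the next highest at 0.65. The part of these cells in the *Cfd* value was not tested.

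The C3a receptor gene *C3ar1* (ENSMUSG00000040552, chr6:122847138-122856161, minus strand), which is expressed mainly on myeloid cells, had overlapping levels in Control and the other groups. It was at 0.63, 0.38 and 0.995 RPKM in Control, 0.52, 0.45 and 0.42 in Diabetic and 0.73 and 0.82 in Rescue. Control spanned both other groups, and the highest single value was in Control 4. With no filter, its difference was 0.11 log2 units between Rescue and Control (limma adjusted p = 0.676) and 0.28 between Rescue and Diabetic (adjusted p = 0.209).

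*Serping1* (ENSMUSG00000023224, chr2:84765387-84775444, minus strand) was the most abundant of the 9 genes in every Control library. It was at 19.9, 24.9 and 19.4 RPKM in Control, 35.0, 30.7 and 34.0 in Diabetic and 37.1 and 58.8 in Rescue. The 3 groups did not overlap, but Rescue 1 stood only just above Diabetic 1. *Serping1* was 1.10 log2 units higher in Rescue than in Control (SE 0.21, limma adjusted p = 0.00520). Its differences were 0.62 for Diabetic against Control (SE 0.18, adjusted p = 0.0975) and 0.48 for Rescue against Diabetic (SE 0.21, 95% interval 0.01 to 0.95, adjusted p = 0.107), and neither passed. Without Rescue 1 the latter was 0.81 (adjusted p = 0.0310).

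**Figure D2:**
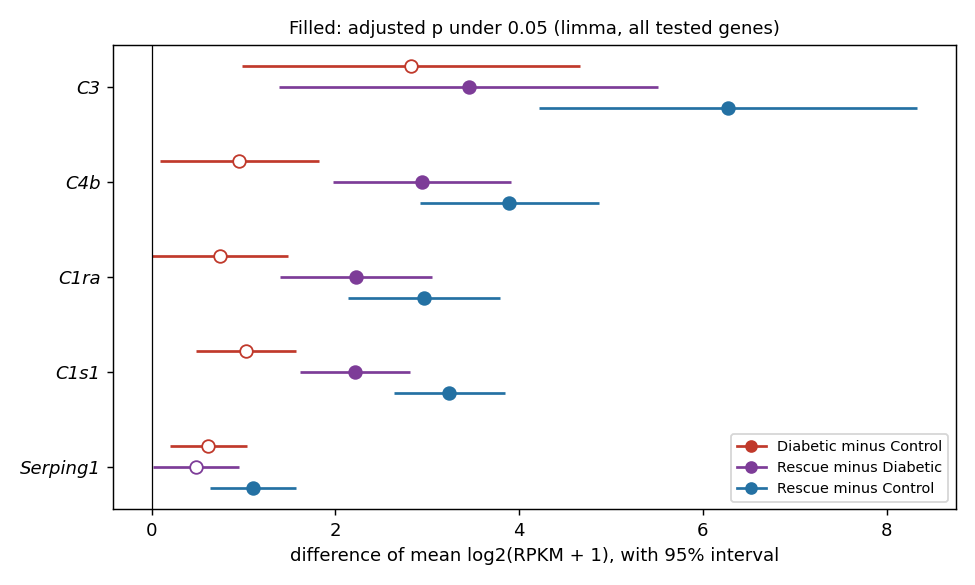
Difference of mean log2(RPKM + 1) (horizontal axis) with its 95% interval for the 5 tested complement genes in the 3 comparisons, from limma over all 8 libraries. Filled points passed an adjusted p of 0.05. All 15 differences are above 0, 9 are filled, and none of the 5 for Diabetic minus Control is.

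The make-up of complement RNA differed between the groups. In Control, the order of mean levels began with *Serping1*, *C1s1* and *C3*, and *Serping1* made up 73.2 to 77.2% of the summed RPKM of the 9 genes. In Rescue the order began with *C3*, *Serping1* and *C1s1*, and *C3* made up 65.8 and 62.5% of the sum. Diabetic was mixed, with *C3* at 45.0, 47.0 and 7.49%. In Rescue, *C4b* and *C1ra* were neighbours in the order, and their ranges over the 2 libraries were 16.2 to 24.8 and 11.9 to 15.3 RPKM, whereas those of *Serping1* and *C1s1* overlapped. In Control, *C3* overlapped both of its neighbours, *C1s1* and *C1ra*. In Diabetic, *C3* spanned its neighbours *Serping1* and *C1s1*, and *C1ra* and *C4b* overlapped. The summed RPKM of the 9 genes was 25.8 to 33.8 in Control, 44.5 to 100.5 in Diabetic and 300.0 and 377.9 in Rescue.

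The same library order recurred among the members. Rescue 2 was the highest library, Rescue 1 the second and Diabetic 1 the third for *C3*, *C4b*, *C1ra*, *C1s1* and *Serping1*. Diabetic 2 was the fourth for the first 4 of these genes, and Diabetic 3 was the fifth or sixth. Of the other genes with reads in every library, *C2* was highest in Rescue 2 and next in Diabetic 1, and *C3ar1* was highest in Control 4. By Pearson r over the 8 libraries, the genes whose log2 level was most like that of *C3* were *Mfge8* (0.996), *Shisa5* (0.989), *Il4i1* (0.988), *Wdfy4* (0.987) and *Plbd1* (0.987). *Mfge8*, the closest, was at 5.98, 10.4 and 5.91 RPKM in Control, 38.6, 32.1 and 10.8 in Diabetic and 83.6 and 75.01 in Rescue. Most like the mean of the 5 tested members were *H2-D1* (0.994), *Bcl2* (0.992), *Cd83* (0.990), *Gbp3* (0.990) and *Gimap6* (0.990). These values are descriptions over 8 libraries that share a genotype effect and their depth, and they carry no test.

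Restricting the fit to the 5 libraries with high *Clk1*, a choice made after the data were seen, left 1 Diabetic library, which is assumed to vary like the others. Over all genes this fit called 1885 higher for Rescue minus Control, 939 for Rescue minus Diabetic and 243 for Diabetic minus Control. Rescue against Control then called 4 of 5 members, with *C3* at 6.16 (limma adjusted p = 0.000575) and *Serping1* no longer called (1.04, adjusted p = 0.0566). Rescue against Diabetic called *C4b* (2.12, adjusted p = 0.0160), *C1ra* (1.46, adjusted p = 0.0311) and *C1s1* (1.69, adjusted p = 0.0135), while *C3* was at 2.23 (adjusted p = 0.0526). Diabetic against Control called *C3* (3.93, adjusted p = 0.0337), *C4b* (1.75, adjusted p = 0.0499) and *C1s1* (1.52, adjusted p = 0.0362), where the fit of all 8 libraries called none.

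A further 46 complement genes were listed, of which 21 were tested and 5 were at 0 in every library. In Rescue against Control, 12 of the 21 were called higher and 3 lower. In Rescue against Diabetic, 10 were called higher and 1 lower. In Diabetic against Control, 1 was called higher and 0 lower (limma, adjusted p under 0.05; the shares over all genes given above are the background). The median of the 21 was 1.30, 0.74 and 0.36 log2 units in these 3 comparisons. Among the 21, *Fcna* and *Cd55* passed the filter only through Rescue and *Cfi* and *Cd59b* only through Control, in each case the group where the gene was high. *Cd59b* was not called, and the calls of *Fcna*, *Cd55* and *Cfi* are part of these counts.

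Upstream of the members, recognition genes and initiating proteases had 5 tested genes of 14, and 4 were called higher in Rescue than in Control. *C1qb*, a chain of the C1q recognition molecule, was at 10.04, 9.08 and 16.1 RPKM in Control, 11.1, 19.2 and 8.38 in Diabetic and 53.5 and 44.8 in Rescue. It rose by 1.92 log2 units from Diabetic to Rescue (SE 0.33, limma adjusted p = 0.00456), and *C1qc* rose by 1.82 (adjusted p = 0.00427). *Fcna*, a ficolin of the lectin pathway, was 1.67 higher in Rescue than in Diabetic (limma adjusted p = 0.00318). Outside Rescue *Fcna* stayed under 1 RPKM, so it was tested only through the group where it was high. *C1qa* differed from its partner chains: its difference was -0.06 between Rescue and Diabetic (adjusted p = 0.877) and 0.996 between Rescue and Control (adjusted p = 0.0324), a call lost in 4 of the 8 fits that left out 1 library (adjusted p up to 0.178). *Cfp*, which encodes properdin, a stabiliser of the alternative convertase, was at 3.62, 2.80 and 0.08 RPKM in Control, 4.55, 4.498 and 0.09 in Diabetic and 23.1 and 17.6 in Rescue. It was called at 2.72 against Diabetic (limma adjusted p = 0.0348) and at 2.99 against Control (adjusted p = 0.0279). Of the 8 fits that left out 1 library, 4 lost the first call and 3 the second (adjusted p up to 0.176 and 0.175). The fits without either Rescue library were among them for both calls.

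Downstream lie the terminal genes, whose products build the lytic pore, and 2 of 7 were tested. *Hc*, which encodes C5, was at 0.02 RPKM or less in every library, and *C9* was at 0 in all of them. *C8b* was called lower in Rescue than in Control by -1.41 log2 units (SE 0.39, limma adjusted p = 0.0322). It was at 23.0, 34.5 and 31.1 RPKM in Control, 6.71, 12.6 and 18.2 in Diabetic and 7.40 and 14.2 in Rescue, so the values in both *Irs2*-null groups lay below Control. The call was lost in 4 of the 8 fits that left out 1 library, with adjusted p up to 0.255 (without Rescue 1).

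Among 16 regulators, 10 were tested, and 4 were higher and 2 lower in Rescue than in Control. *Clu*, a chaperone that also restrains the lytic complex, was 1.62 log2 units higher in Rescue than in Control (SE 0.16, limma adjusted p = 0.000438). *Cd55*, a membrane protein that speeds the decay of convertases, was 3.08 higher (SE 0.50, limma adjusted p = 0.00248). Outside Rescue *Cd55* reached 1 RPKM only in Diabetic 1 (4.03 RPKM), so it passed the filter only through Rescue. *Vtn* was also called higher. *Cfi*, which encodes the protease that inactivates C3b and C4b, was lower by -0.59 (SE 0.15, limma adjusted p = 0.0210). That call was lost in 3 of the 8 fits that left out 1 library (adjusted p up to 0.130). *Cfi* passed the filter only through Control, where it was high. *Cpn1*, the catalytic subunit of the carboxypeptidase that trims C3a and C5a, moved both ways: 0.57 higher in Diabetic than in Control (adjusted p = 0.0449), -1.06 in Rescue against Diabetic (adjusted p = 0.00185) and -0.49 in Rescue against Control (adjusted p = 0.0364). Of the 8 fits that left out 1 library, 5 lost its Diabetic-Control call and 5 its Rescue-Control call (adjusted p up to 0.204 and 0.149), while its call in Rescue against Diabetic held in all 8.

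Of 7 further receptor genes, 3 were in the main test, and all 3 were called higher in Rescue than in Control. *C3ar1*, under the filter, overlapped between Rescue and Control. *Itgam*, the gene of the α chain of CR3, was at 0.67 and 0.57 RPKM in Rescue, lower elsewhere, and not tested. Of its 5024 exon bases, 3450 overlap *Gm49368*. *Itgb2*, the shared β chain of the leukocyte receptors CR3 and CR4, was at 0.76, 0.62 and 1.22 RPKM in Control, 4.70, 5.27 and 0.48 in Diabetic and 33.8 and 33.2 in Rescue. Its difference was 4.22 log2 units against Control (SE 0.54, limma adjusted p = 0.000926). *Itgax*, the α chain of CR4, differed by 2.505 (SE 0.36, adjusted p = 0.00146) and *Cr2*, a receptor of B cells and follicular dendritic cells, by 2.85 (SE 0.67, adjusted p = 0.0158, or 0.135 without Rescue 1). *C5ar1*, the C5a receptor, was at 0.18 to 0.38 RPKM in all libraries and was not tested.

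**Figure D3:**
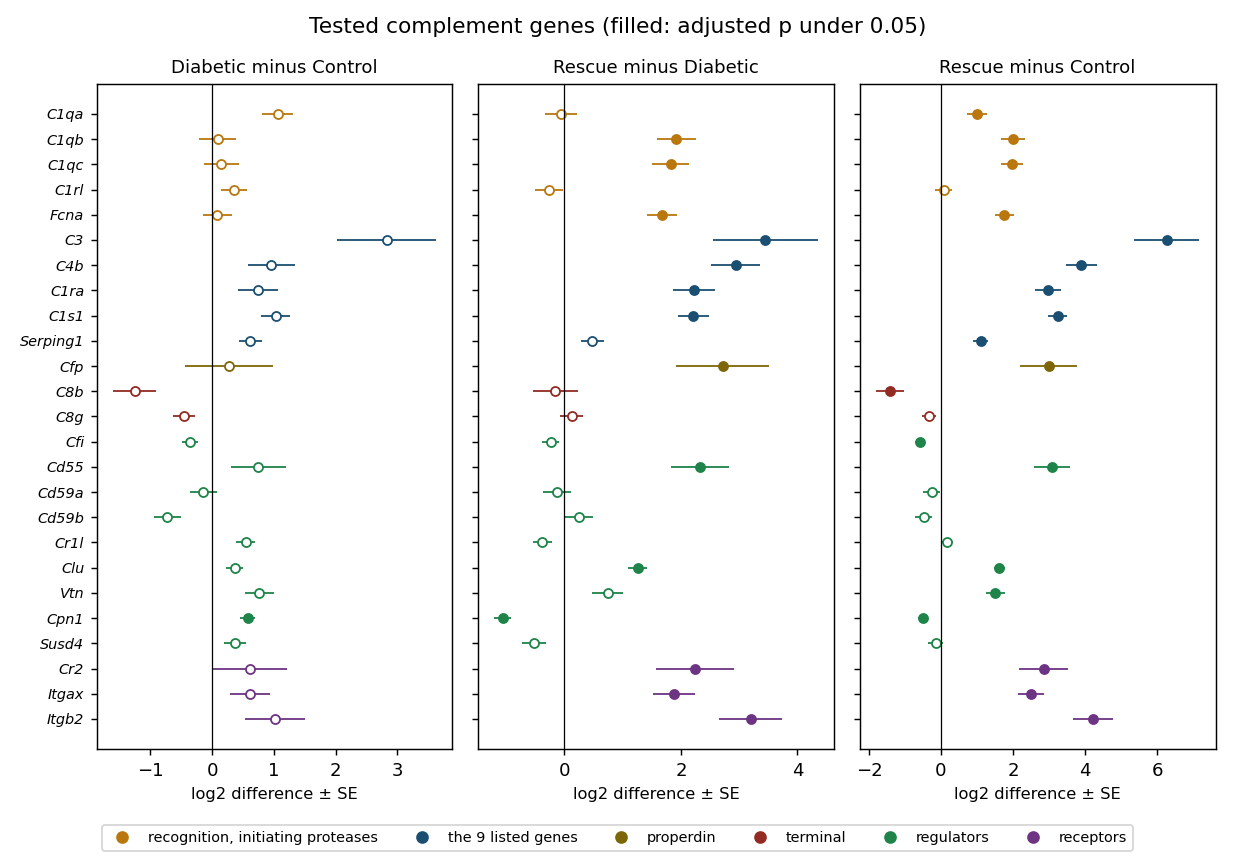
Log2 difference with its SE (horizontal axis, a scale for each panel) for 25 tested complement genes, ordered from recognition to receptors, in the 3 comparisons from limma. Filled points passed an adjusted p of 0.05. In Rescue minus Control 16 of these genes are filled above 0 and 3 (*C8b*, *Cfi*, *Cpn1*) below it, and in Diabetic minus Control only *Cpn1* is filled.

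Marker lists of leukocytes and stroma were also summed in each library. In bulk RNA of whole islets, more cells of a type and more RNA per cell cannot be told apart. The 10 macrophage markers summed to 21.03 to 45.02 RPKM in Control, 19.9 to 136.5 in Diabetic and 566.6 to 631.0 in Rescue, and 7 of the 8 tested were called higher in Rescue than in Diabetic. *Lyz2* led the sum, at 468 and 394 RPKM in Rescue, whereas *Adgre1*, the gene of the F4/80 antigen, was at 1.83 and 2.79 RPKM and was not called in any comparison. The 7 lymphocyte markers summed to 5.28 to 23.3, 6.28 to 101.0 and 230.4 to 321.0 RPKM, and 5 of 7 were called higher in Rescue than in Diabetic. The 10 fibroblast and stellate cell markers summed to 9.21 to 26.1, 25.03 to 35.4 and 109.0 to 120.8 RPKM, with 4 of 8 tested called higher in Rescue than in Diabetic and 8 of 8 in Rescue than in Control. Endothelial markers summed to 110.0 to 152.0, 146.5 to 205.1 and 238.2 to 268.6 RPKM, with 2 of 7 called higher in Rescue than in Diabetic, near the 24.0% of all tested genes, and 4 of 7 in Rescue than in Control. None of these 4 lists had a marker at 0 in every library. *Pdgfra*, *Cd3e* and *Cd3g* passed the filter only through Rescue, where they were high. In Diabetic against Control the median log2 difference of the tested markers was 0.45 for macrophages, 1.18 for lymphocytes, 0.90 for fibroblasts and stellate cells and 0.54 for endothelium.

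Within the Diabetic group the macrophage, lymphocyte and fibroblast sums were lowest, like *C3*, in Diabetic 3, but the endothelial sum was not. In Diabetic 1, 2 and 3 the fibroblast and stellate cell sums were 35.4, 33.5 and 25.03 RPKM, and the endothelial sums 146.5, 205.1 and 191.4. Diabetic 3, the library with *C3* at 3.33 RPKM, had macrophage and lymphocyte sums of 19.9 and 6.28 RPKM, within or just below the Control range. Diabetic 1 and 2 had macrophage sums of 88.2 and 136.5 and lymphocyte sums of 101.0 and 31.5 RPKM. *Serping1*, in contrast, was at 34.0 RPKM in Diabetic 3, above every Control library. Acinar markers, a sign of exocrine tissue carried over, summed to 291.8 and 386.9 RPKM in Diabetic 1 and 2 and to 42.7 in Diabetic 3, but to 161.6 and 34.4 in Rescue 1 and 2, the 2 libraries with the highest *C3*. The sum of the duct markers was lower in both Rescue libraries (31.2 and 28.5 RPKM) than in the other 6 (39.1 to 66.4). *Krt7* and *Spp1* carried this sum, and *Krt19*, *Sox9* and *Cftr* were under 1 RPKM in every library. *Krt19* was lowest in Rescue 1 and 2 (0.22 and 0.04 RPKM), whereas *Sox9* was highest in Rescue 1 (0.46 RPKM). The mesothelial sum was 3.54 to 33.1 RPKM and was lowest in Rescue 2, but nearly all of it was *Msln*. *Upk3b* was at 0 in every library. *Wt1*, at 0.56 and 0.36 RPKM in Rescue 1 and 2, and *Lrrn4*, at 0.07 RPKM in both, were higher there than in any other library. The part of these cell types in the complement values was not tested.

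**Figure D4:**
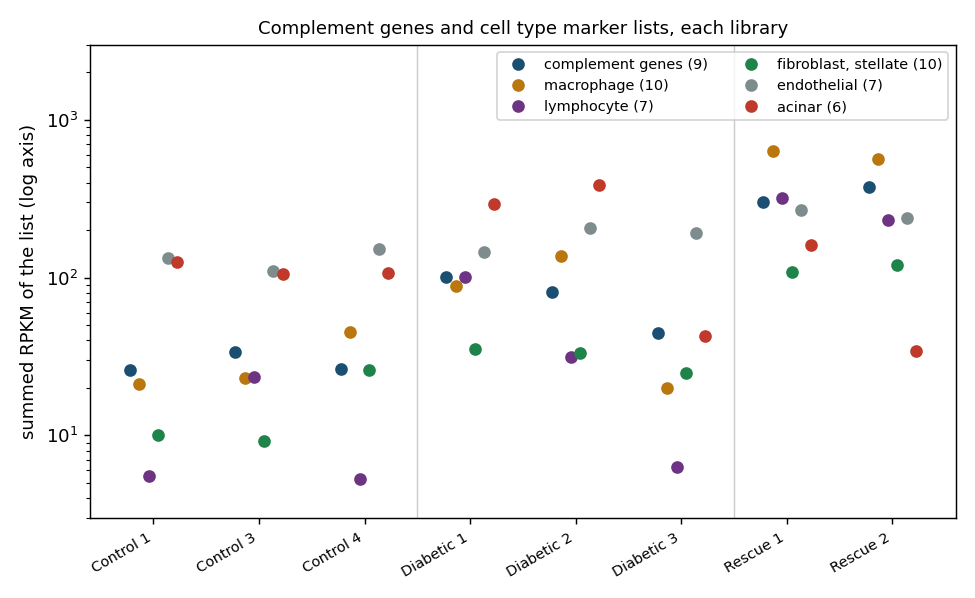
Summed RPKM (vertical axis, log scale) of the 9 complement genes and of 5 cell type marker lists in each of the 8 libraries, with the number of genes per list in brackets and grey lines between genotypes. Complement, macrophage, lymphocyte and fibroblast sums are highest in both Rescue libraries, and the acinar sum is not.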

How the data were processed

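RNA of whole islets was sequenced in 8 libraries. Per the labels and the Methods, the authors selected polyA RNA, aligned paired-end reads to mm10 with STAR, counted genes with HTSeq and analysed them with edgeR (versions not given in the sources used here), and the deposited values are RPKM, 1 per gene and library. The low values fall on steps of whole reads: all 18126 genes above 0 gave whole reads within 0.0001 reads in every library, which gave read counts and depth (91.3 to 96.9% of each RPKM denominator lay in listed genes). The recovered reads served for floors and for 1 alternative test (voom), which called 2292 genes higher and 680 lower for Rescue minus Control, 3179 and 665 for Rescue minus Diabetic, and 173 and 314 for Diabetic minus Control. No other column of per-sample values was in the matrix.

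The 12594 of 24123 genes that reached 1 RPKM in 2 or more libraries were fitted as log2(RPKM + 1) in limma 3.58.1 (R 4.3.3), with 1 mean per genotype over all 8 libraries, empirical Bayes with a trend, 2-sided p-values adjusted within a comparison over all 12594 genes (Benjamini-Hochberg), at a threshold of 0.05. ± is the SD of RPKM values and SE that of the limma difference. The fit was tested on simulated data. Coordinates and exon overlaps are from GENCODE M21 (GRCm38), and promoter sequences from RefSeq (GRCm38.p6). Figures were drawn in matplotlib 3.10.9.

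The 9 genes, the other gene lists and the tests were chosen with earlier results of these data known. Besides the 9 genes, the text names complement genes called in at least 1 comparison and the defining genes of each list, class III neighbours that were called, and the 5 genes most like *C3* or the members' mean. A few others (*Gm20547*, *Gm16567*, *Gm49368*, *C1rb*, *C4a*, *C9*, *Itgam*, *Clk1*, and the cytokine genes below) were named after their values were seen. Alternatives were pseudocounts, filters, scalings, fewer libraries, a replicate block, array weights, a nuclear RNA covariate and voom. The results of a few single genes are not reported here.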

Additional observations from a re-analysis of the deposited data

How the results depend on the processing

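The calls of *C4b*, *C1ra* and *C1s1* for Rescue minus Diabetic and Rescue minus Control kept their direction and stayed past the threshold in every alternative that tested them (*C1ra* fell under the filter on a mean of at least 5 RPKM), and no result reversed. *C3* in Rescue against Diabetic lost its call with array weights (2.77, adjusted p = 0.0750), the nuclear RNA covariate (2.85, adjusted p = 0.106) and without either Rescue library. The cause of these changes was not tested. Depth limits *C2*, *Cfb*, *Cfd* and *C3ar1*, with at most 61 reads in any library. Median-of-ratios scaling moved the median of all genes by 0.12 (Diabetic against Control), -0.20 (Rescue against Diabetic) and -0.09 (Rescue against Control), and quantile scaling by 0.10, -0.31 and -0.21, less than each member's own called difference.

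The 0 members called in Diabetic against Control became 1 with a pseudocount of 0.5 or 0.1, a mean of at least 5 RPKM, quantile scaling, only the 2 groups compared or the nuclear RNA covariate, 2 with median-of-ratios scaling, 5 with array weights, and 3 in the 5 libraries with high *Clk1*. Leaving out 1 library gave 0 to 3 (3 without Diabetic 3, 1 without Rescue 1 or 2). In Rescue against Diabetic the count was 3 to 4 and in Rescue against Control 5 in every such fit.

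Over all genes in Diabetic against Control, 193 were called higher and 307 lower. These became 393 and 194 with median-of-ratios scaling, 308 and 190 with quantile scaling, 298 and 465 with only the 2 groups compared, and 1867 and 4848 with array weights. No filter gave 114 higher, the 5 libraries gave 42 lower, and leaving out 1 library gave 10 to 656 higher and 8 to 460 lower. In Rescue against Diabetic, 3022 higher and 730 lower became 2124 and 1674 with median-of-ratios scaling, 1805 and 2365 with quantile scaling, 1985 and 289 with the 2 groups only, 1847 and 387 with the nuclear RNA covariate and 939 and 196 in the 5 libraries. A mean of at least 5 RPKM gave 1250 higher, and leaving out 1 library gave 1438 to 3695 higher and 142 to 1506 lower. In Rescue against Control, 2268 and 690 became 763 and 397 with a mean of at least 5 RPKM, 2078 and 1269 with median-of-ratios scaling and 1804 and 2483 with quantile scaling. The 2 groups only gave 441 lower and the 5 libraries 245 lower, and leaving out 1 library gave 1567 to 2350 higher and 162 to 1742 lower.

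The labels share replicate numbers across genotypes. The deviations of same-numbered libraries correlated at -0.26 to 0.37 and not all above 0.1, and the main fit used no pairing. These correlations cannot exclude a pairing. The 2 Rescue libraries deviate from their mean by equal and opposite amounts, with correlations of 0.37 and -0.37 with Control 1. With the replicate block, the Diabetic-Control comparison had 27 genes higher and 22 lower, and Rescue minus Control 1199 and 114, on fewer residual degrees of freedom. *C3* in Rescue against Diabetic was then at 2.95 (adjusted p = 0.0531) and *Serping1* in Rescue against Control at 1.03 (adjusted p = 0.0653). Over 42 single-gene results and all alternatives, 713 values stayed on their side of the threshold, 22 gained a call and 90 lost one.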

Other observations

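The 3 chains of C1q, which are encoded side by side on chromosome 4 and assemble together, did not keep a constant ratio. *C1qa* over *C1qb* in RPKM was 3.29, 5.11 and 3.59 in Control, 9.34, 6.09 and 8.14 in Diabetic and 1.77 and 1.90 in Rescue, so the groups did not overlap. *C1qb* over *C1qc* stayed between 1.84 and 2.40 in all 8 libraries. *C1qa* itself was at 33.0, 46.3 and 57.7 RPKM in Control, 103.8, 117 and 68.2 in Diabetic and 94.8 and 85.2 in Rescue. The difference between the chains was noticed after the values were seen and was not tested; with 3 against 3 libraries an exact test could not go below 0.10.

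Of 21 listed cytokine and acute phase genes, 15 were tested, and Rescue against Diabetic had 11 called higher and 1 lower (limma, adjusted p under 0.05). Over all tested genes, 24.0% were called higher and 5.80% lower in that comparison. *Nfkbia*, an inhibitor and target of NF-kappaB, was at 18.5, 30.9 and 18.4 RPKM in Control, 22.8, 16.7 and 16.7 in Diabetic and 68.4 and 84.9 in Rescue, and rose by 1.98 log2 units from Diabetic to Rescue (SE 0.25, adjusted p = 0.00164). *Irf1* rose by 1.55 (limma adjusted p = 0.00200), *Tnf* by 1.57 (adjusted p = 0.00239) and *Il1b* by 2.14 (adjusted p = 0.0123). Outside Rescue, *Tnf*, *Il1b* and *Osmr* stayed under 1 RPKM, so these genes were tested only through the group where they were high. *Il1r1*, the receptor of interleukin-1, was the gene called lower, at -1.35 (adjusted p = 0.0267). *Cebpb* (0.74, adjusted p = 0.0767) and *Cebpd* (0.33, adjusted p = 0.725) did not pass.

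*C2*, *Cfb* and *C4b* lie among other genes of the class III region of the MHC on chromosome 17. Of 12 such neighbours 10 were tested, and 3 were called higher in Rescue than in Diabetic: *Ehmt2* by 0.75 (limma adjusted p = 0.0172), *Zbtb12* by 0.81 (adjusted p = 0.00423) and *Tnxb* by 0.71 (adjusted p = 0.00920). This share is near the 24.0% of all tested genes called higher in that comparison. *Tnxb* stayed under 1 RPKM outside Rescue, so it was tested only through the group where it was high. *Zbtb12*, which overlaps 161 exon bases of *C2* on the other strand, was the one neighbour called in Diabetic against Control, at -0.77 (adjusted p = 0.0194). *Tnxb*, which lies next to the *C4* genes, was the one neighbour called in Rescue against Control, at 0.94 (adjusted p = 0.00222), beside 3.89 for *C4b* and 18.0% of all genes called higher.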
